A study of Mus musculus with 16 samples.

Results

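The comparison is that of AAV8-LRG1 with AAV8-eGFP in epididymal white adipose tissue (eWAT, the visceral fat pad beside the epididymis) of db/db mice at week 10. It takes the 4 libraries labelled LRG1 and the 4 labelled eGFP at that age, 8 of the 16 libraries of the series. All mice were males of genotype C57BLKS/J-db/db, which lack a working leptin receptor and become obese and diabetic on chow. The 4 treated mice had received an adeno-associated virus that expresses FLAG-tagged LRG1 and the 4 controls the same serotype with eGFP. In both cases the injection was retro-orbital, at 4 weeks of age. The promoter of the vector is not restricted to adipocytes, cages of 4 mice were assigned to a virus as a whole, and the cage of each mouse was not given, so cage and virus cannot be told apart. The comparison asks how the transcriptome of the fat pad differs when LRG1 is raised. The other 8 libraries, from the same kinds of mice at week 7, shared the model fit and are compared only where week 10 differs.

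LRG1 (leucine-rich alpha-2 glycoprotein 1) is a secreted glycoprotein of liver, neutrophils and adipocytes, known as an acute-phase protein and as a modifier of TGF-beta signalling through endoglin. The fat pad of an obese animal holds, beside adipocytes, macrophages that surround dying adipocytes and take up their lipid, mast cells, lymphocytes, blood vessels and a stroma that lays down matrix. Interferon-gamma from lymphocytes acts on most of these cells and induces antigen-presentation genes, the immunoproteasome and GTPases of the IRG and GBP families. In RNA of a whole fat pad, fewer cells of a type and less RNA per cell cannot be told apart.

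Lrg1, on chromosome 17 from 56119678 to 56122001 of GRCm38 on the minus strand, was the check of the labels. It stood at 99.6, 115, 106 and 105 CPM (counts scaled by library size) in eGFP replicates 1 to 4. In LRG1 replicates 1 to 4 it was at 506, 624, 428 and 286 CPM. The groups did not overlap, and the log2 fold change of LRG1 against eGFP was 2.12 (SE 0.20, adjusted p = 0.00012, edgeR). The counts include any transcript of the vector that maps to the gene. The 8 libraries held between 45376227 and 63916153 counts. Adipoq, which encodes the adipocyte hormone adiponectin, was detected in all 8 libraries, and the epididymis and testis list left 1 of 20 genes, Rnase10, above the filter on low counts. Adipoq differed among the controls, however, at 409, 1379, 546 and 1144 CPM in eGFP replicates 1 to 4 against 1037 to 1327 CPM in the LRG1 libraries. eGFP replicates 1 and 3 stood apart from replicates 2 and 4 on the first principal component of the 8 libraries (58.2% of the variance), at -58.7 and -68.9 against 4.38 and -14.9, with the LRG1 libraries at 25.6 to 47.5.

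The genes called lower in the LRG1 fat pads included markers of immune cells and lysosomal hydrolases, and those called higher included enzymes of cholesterol synthesis, collagen chains and acute-phase genes. Of 20822 genes tested, 1092 (5.24%) were lower and 762 (3.66%) higher with LRG1 at an adjusted p below 0.01, which is what "called" means in the text. The median log2 fold change over all genes tested was -0.0047. All 4 LRG1 libraries lay below all 4 eGFP libraries for 968 of the genes called lower, where 10.1% of all tested genes did so. All 4 lay above for 736 of the genes called higher, where 9.96% of all tested genes did so. A log2 fold change below -1 was found for 570 of the genes called lower, and one above 1 for 193 of those called higher.

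**Figure D1:**
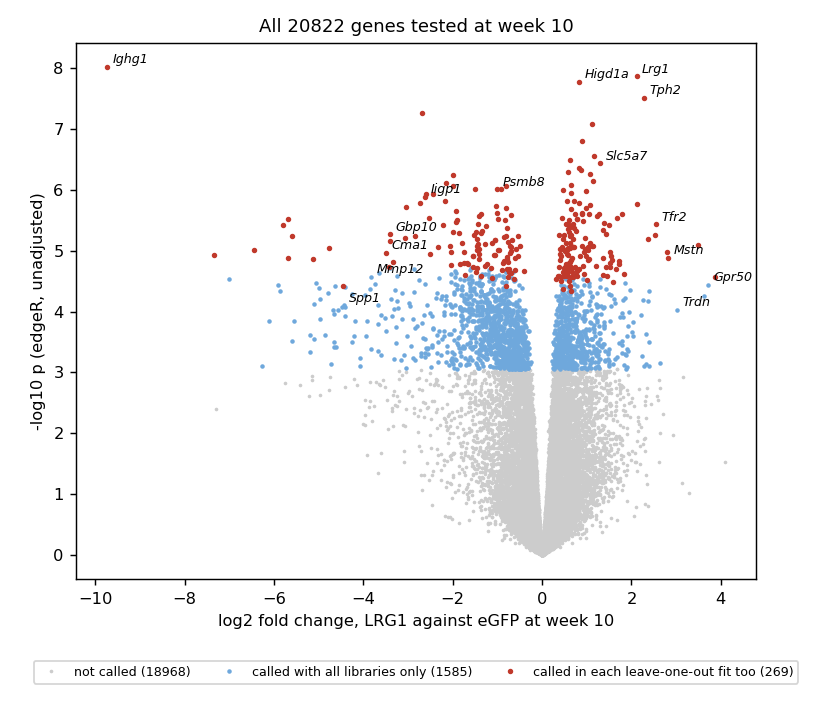
Log2 fold change of LRG1 against eGFP at week 10 (x axis) and -log10 of the unadjusted edgeR p (y axis) for each of the 20822 genes tested. Grey points were not called, blue points were called with all libraries in the fit, and the 269 red points were called in each of the 8 fits without 1 library as well; the largest fall is that of Ighg1 at -9.73.

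How many genes were called depended on single mice. Without eGFP replicate 1 there were 273 lower and 216 higher, and without eGFP replicate 3 there were 291 and 239. Leaving out eGFP replicate 2 raised the calls to 2046 and 1601, and leaving out eGFP replicate 4 gave 1589 and 1206. Without LRG1 replicates 1, 3 or 4 there were 441, 196 and 125 lower and 289, 220 and 159 higher. With both eGFP replicates 1 and 3 left out, 74 were lower and 87 higher. In that fit 1091 of the 1092 genes called lower and all 762 called higher kept their direction. All LRG1 libraries already lay beyond all eGFP libraries for 968 and 736 of these, so most directions could hardly change. The median log2 fold change moved from -1.04 to -0.54 for the genes called lower and from 0.66 to 0.47 for those called higher. A fit of the 8 libraries of week 10 alone, which estimates the spread only from them, called 10 lower and 2 higher at the same threshold, and 898 and 639 at an adjusted p below 0.05. The genes that were called with all libraries and again in each of the 8 leave-one-out fits numbered 118 lower (0.567% of those tested) and 151 higher (0.725%), and are said below to have held throughout.

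**Figure D2:**
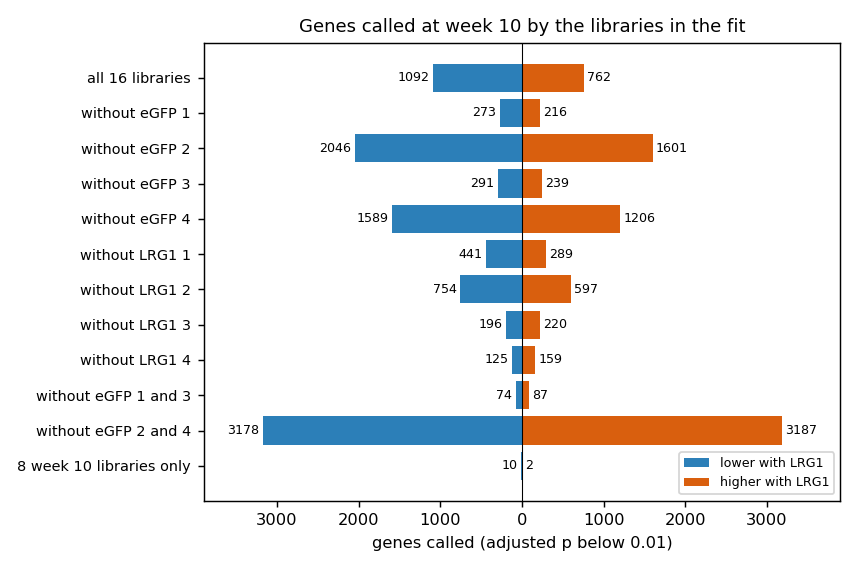
Number of genes called lower (bars to the left) and higher (bars to the right) with LRG1 at week 10, for the fit of all 16 libraries and for fits that leave out the named week 10 libraries or the libraries of week 7. Both directions shrink without eGFP replicate 1 or 3 and grow without replicate 2 or 4.

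Of 30 tested genes that interferon-gamma induces, 14 were lower with LRG1 and none higher, with a median log2 fold change of -0.76, and 6 held throughout. Iigp1, an immunity-related GTPase that attacks the vacuoles of intracellular parasites, was at 238, 185, 285 and 243 CPM in eGFP replicates 1 to 4. In the LRG1 libraries it was at 34.1, 37.4, 57.4 and 26.1 CPM. The groups did not overlap, with a log2 fold change of -2.62 (SE 0.35, adjusted p = 0.00095), and eGFP replicates 1 and 3 did not stand apart from 2 and 4. Igtp, a GTPase of the same family, was at -2.43 (SE 0.32, adjusted p = 0.00087), Tgtp1 at -2.85 (SE 0.43, adjusted p = 0.0012) and Ifi47 at -2.17 (SE 0.29, adjusted p = 0.0010). Gbp10, a guanylate-binding protein gene, was at 12 to 21 CPM in the eGFP and 0.796 to 3.20 CPM in the LRG1 libraries, a log2 fold change of -3.40 (SE 0.51, adjusted p = 0.0012). Ifi47 and Gbp10 were not on the list. Tgtp1 and Gbp10 have near-identical neighbours, so their counts may include reads of these. In each of these 5 genes LRG1 replicate 3 held the highest level of its group.

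Psmb8, the chymotrypsin-like subunit of the immunoproteasome, was measured with little spread, at 23.3, 21.8, 28.3 and 26.1 CPM with eGFP and 13.3, 13, 11.7 and 11.5 CPM with LRG1. Its log2 fold change was -1.01 (SE 0.13, adjusted p = 0.00086), and it was 1 of the 12 genes that the 8 libraries alone also called (adjusted p = 0.0076). H2-D1, a class I heavy chain that presents the peptides made there, was at 671 to 942 CPM with eGFP and 437 to 565 CPM with LRG1 (log2 fold change -0.71, SE 0.11, adjusted p = 0.0015). Both genes lie in the H2 region, where the C57BLKS strain differs from the reference genome in all groups. Cxcl9, a chemokine that draws activated T cells, was at 97.9 to 136 CPM with eGFP and 14 to 41.9 CPM with LRG1 (log2 fold change -2.34, SE 0.51, adjusted p = 0.0056). Cxcl10, which binds the same receptor, was at -0.86 (SE 0.30, adjusted p = 0.050), and its groups overlapped through LRG1 replicate 3. Ifng itself was counted at 0.123 to 0.270 CPM with eGFP and at 0 to 0.0980 CPM with LRG1 (log2 fold change -1.51, SE 0.67, adjusted p = 0.11). Of 24 genes induced by type I interferon, 2 were lower (8.33%, against 5.24% of all genes), with a list median of -0.19. They were Zbp1, a sensor of Z-form nucleic acids (-1.40, SE 0.22, adjusted p = 0.0015), and Oasl1.

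Of 20 tested T cell markers, 7 were lower with LRG1 and none higher (median -1.08), and none held throughout. Cd8a, the co-receptor chain by which cytotoxic T cells read class I, was at 2.48 to 4.94 CPM with eGFP and 0.341 to 0.768 CPM with LRG1, with a log2 fold change of -2.68 (SE 0.54, adjusted p = 0.0039). Foxp3, the master regulator of regulatory T cells, was at -1.17 (SE 0.23, adjusted p = 0.0032). Over the T cell list the median difference from the LRG1 mean, in log2(CPM + 0.5), was 0.50, 0.86, 0.58 and 0.94 in eGFP replicates 1 to 4. The interferon-gamma list gave 0.53, 0.71, 0.74 and 0.89. The LRG1 libraries ranged from -0.23 to 0.26 on the T cell list and from -0.22 to 0.20 on the interferon-gamma list, below all 4 controls on both.

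**Figure D3:**
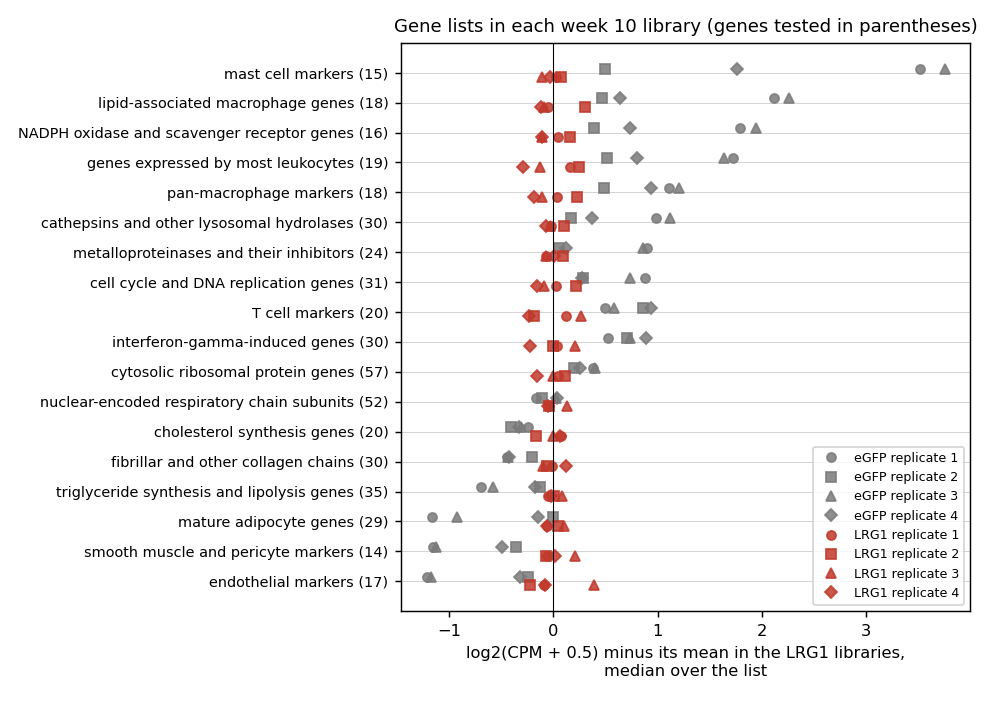
Position of 18 gene lists in each of the 8 week 10 libraries, as the median over the genes of a list of log2(CPM + 0.5) minus the mean of the LRG1 libraries (x axis). Grey symbols are eGFP and red symbols LRG1 libraries, with the shape giving the replicate. Mast cell and lipid-associated macrophage lists are far higher in eGFP replicates 1 and 3 than in 2 and 4, while the T cell and interferon-gamma lists are not.

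Among all genes tested, an immunoglobulin gene had the log2 fold change farthest below 0. Ighg1, the constant region of IgG1 made by plasma cells, was at 1029, 109, 616 and 476 CPM in eGFP replicates 1 to 4. In the LRG1 libraries it was at 1.76, 0.417, 0.245 and 0.180 CPM. The groups did not overlap, with a log2 fold change of -9.73 (SE 0.90, adjusted p = 0.00012), and the call held throughout. Igkc, the kappa light chain shared by most mouse antibodies, was lower by less, at 349 to 1376 CPM against 29.2 to 177 CPM (log2 fold change -3.23, SE 0.62, adjusted p = 0.0031). Ighg2b and Ighg2c, other IgG constant regions, were at -5.21 (SE 1.11) and -5.10 (SE 1.1). Immunoglobulin genes share stretches of sequence, so reads may be split between them. Of 24 tested B cell and plasma cell markers, 5 were lower and none higher, all of them antibody constant regions but for Sdc1, the surface proteoglycan of plasma cells. Immunoglobulin genes took up 0.150 to 0.412% of all counts in the eGFP and 0.0823 to 0.138% in the LRG1 libraries.

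Of 18 pan-macrophage markers 14 were lower with LRG1 and none higher (median -1.02), and 5 held throughout. The 3 chains of C1q, the recognition molecule of the classical complement pathway made by tissue macrophages, were at -1.03 (C1qc, SE 0.14, adjusted p = 0.0010), -1.0 (C1qb, SE 0.14) and -0.84 (C1qa, SE 0.12). C1qa was at 315, 227, 325 and 347 CPM with eGFP and 167, 194, 177 and 143 CPM with LRG1. Each C1q gene was lowest in eGFP replicate 2, which still lay above all LRG1 libraries. Among 25 complement genes 11 were lower and 1, the complement inhibitor Cd59a, was higher, and Vsig4, a macrophage receptor for C3 fragments, was at 17.2 to 50.4 CPM with eGFP and 9.51 to 12.3 CPM with LRG1 (-1.79, SE 0.28, adjusted p = 0.0014).

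Some receptors by which phagocytes sense antibody and nucleic acid were lower too. Fcgr4, an activating receptor for IgG2, was at 28.9, 13.8, 27.1 and 30 CPM with eGFP and 6.18, 8.55, 4.93 and 5.50 CPM with LRG1 (log2 fold change -1.99, SE 0.25, adjusted p = 0.00078). Of 13 Fc receptor genes 5 were lower and none higher, and Fcgr4 and Fcgr3 held throughout. Tlr7, an endosomal receptor for single-stranded RNA, was at 62.4 to 107 CPM with eGFP and 41.4 to 50.6 CPM with LRG1 (-0.92, SE 0.12, adjusted p = 0.00086). Its close relative Tlr8 had a log2 fold change of -1.37 (SE 0.20, adjusted p = 0.0012), and the inflammasome protease gene Casp1 one of -1.28 (SE 0.21, adjusted p = 0.0018). These 3 held throughout, out of 10 lower and 0 higher among 24 genes of Toll-like receptors, the inflammasome and NF-kB. Cadm1, a cell adhesion molecule, and Cd72, a receptor of the C-type lectin family, were also among the 10 genes called lower with the smallest p, at -2.15 (SE 0.28) and -1.99 (SE 0.26).

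A second set of transcripts was high mainly in eGFP replicates 1 and 3. For 933 of the 1092 genes called lower (85.4%) both of these libraries lay above replicates 2 and 4, which was so for 30.6% of all genes tested. The genes called higher showed the reverse split. For 600 of those 762 (78.7%) eGFP replicates 1 and 3 both lay below replicates 2 and 4, against 31.5% of all genes tested. Gpnmb, a glycoprotein of lipid-laden macrophages, was at 3878, 616, 4257 and 814 CPM in eGFP replicates 1 to 4 and at 250, 558, 243 and 261 CPM in the LRG1 libraries. Its log2 fold change was -2.87 (SE 0.52, adjusted p = 0.0025), but -1.12 (adjusted p = 0.039) with eGFP replicates 1 and 3 left out. Trem2, the receptor that marks these macrophages, was at 153, 45.2, 164 and 70.8 CPM with eGFP and 22.3 to 39.3 CPM with LRG1 (-1.92, SE 0.33, adjusted p = 0.0019). Of 18 lipid-associated macrophage genes, 12 were lower and 2 higher (median -1.59), and Ctss, an elastolytic cathepsin, was the 1 member that held throughout, at -1.99 (SE 0.30, adjusted p = 0.0012). The number lower ran from 1 to 15 over the leave-one-out fits.

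Of 15 mast cell markers 13 were lower and none higher with LRG1, with a median log2 fold change of -3.31. The number lower was 2 with limma-voom and 3 with eGFP replicates 1 and 3 left out. Cma1, a chymase, was at 131, 12.5, 145 and 29.5 CPM with eGFP and 8.42, 7.18, 5.88 and 6.69 CPM with LRG1, with a log2 fold change of -3.50 (SE 0.56, adjusted p = 0.0014). Even the lowest control, replicate 2, lay above every LRG1 library, and with eGFP replicates 1 and 3 left out the value was -1.57 (adjusted p = 0.0064). Cpa3, the mast cell carboxypeptidase, and the tryptases Tpsb2 and Tpsab1 were at -3.34 (SE 0.55), -3.41 (SE 0.52) and -3.42 (SE 0.57) with adjusted p of 0.0013 to 0.0018, and these 4 proteases held throughout. Tpsab1 was at -1.70 (adjusted p = 0.018) with eGFP replicates 1 and 3 left out. Mcpt2, another mast cell protease, was at -3.40 (SE 0.57, adjusted p = 0.0018) and did not hold without LRG1 replicate 4 (adjusted p = 0.0101). Tpsb2 and Tpsab1 are close paralogs whose reads may be shared. Tph1, the tryptophan hydroxylase that mast cells use to make serotonin, was at 8.06, 0.638, 9.68 and 1.26 CPM with eGFP and 0.229 to 0.433 CPM with LRG1 (-3.97, SE 0.73, adjusted p = 0.0026).

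Some phagocyte oxidase and antioxidant genes showed the same split of the controls. Of 16 NADPH oxidase and scavenger receptor genes 9 were lower and none higher (median -1.40). Cybb, the catalytic subunit, was at 347, 158, 417 and 212 CPM with eGFP and 89.6 to 121 CPM with LRG1 (-1.41, SE 0.22, adjusted p = 0.0014). Of 37 glutathione, peroxidase and antioxidant genes 8 were lower, 2 were higher and 27 were not called (median -0.12). The shares were 21.6% lower and 5.41% higher, against 5.24% and 3.66% of all genes tested. Prdx1, a peroxiredoxin, was at 1261, 212, 1419 and 309 CPM with eGFP and 196 to 214 CPM with LRG1 (-1.97, SE 0.43, adjusted p = 0.0054). Slc7a11, the cystine transporter that feeds glutathione synthesis, was at 87.8, 5.88, 109 and 7.20 CPM with eGFP and 3.75 to 5.38 CPM with LRG1 (-3.50, SE 0.73, adjusted p = 0.0047, and -0.50, adjusted p = 0.42, without eGFP replicates 1 and 3). The 2 higher members were the mitochondrial superoxide dismutase Sod2 at 0.56 (SE 0.08, adjusted p = 0.0010, held throughout) and the extracellular one, Sod3, at 0.87 (SE 0.19, adjusted p = 0.0050).

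Of 23 iron handling genes 3 were lower, 2 were higher and 18 were not called (median -0.05). Hmox1, which breaks down haem, was at 556, 52.3, 669 and 106 CPM with eGFP and 50.3 to 73.8 CPM with LRG1, so eGFP replicate 2 lay within the LRG1 range (log2 fold change -2.45, SE 0.55, adjusted p = 0.0062). Slc11a1, the iron and manganese transporter of the phagosome, was at -1.95 (SE 0.34, adjusted p = 0.0022). Hfe, a class I-like protein that senses transferrin iron, was higher, at 97.4, 102, 98.8 and 122 CPM with eGFP and 188, 158, 203 and 203 CPM with LRG1 (0.84, SE 0.10, adjusted p = 0.00078). Tfr2, the second transferrin receptor, was at 1.32, 3.51, 1.28 and 3.81 CPM with eGFP and 20.6, 8.03, 12 and 18.3 CPM with LRG1 (2.56, SE 0.37, adjusted p = 0.0011). Hfe and Tfr2 held throughout, and the 3 lower genes, of which the exporter Slc40a1 was the third, did not. In eGFP replicates 1 and 3 the adipocyte list lay at -1.17 and -0.93 relative to the LRG1 mean. In replicates 2 and 4 it lay at -0.0017 and -0.15. The adipocyte list was thus low in the libraries where the genes of this second set were high. Its part in their differences was not tested.

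Lysosomal hydrolases were in part called lower with LRG1, and most of these calls depended on single libraries. Of 30 tested, 16 were lower and 1, the cholesterol carrier Npc2, was higher (median -0.75). Only 1 of the 16 held throughout, and the number lower ran from 1 to 22 over the leave-one-out fits. With eGFP replicates 1 and 3 left out 1 was called lower and the median was -0.30. Psap, the precursor of the saposins that open lipids to hydrolases, was at 5609, 1893, 6396 and 2553 CPM with eGFP and 1455 to 1794 CPM with LRG1 (-1.40, SE 0.28, adjusted p = 0.0037). Lgmn, an asparaginyl endopeptidase, was at 463 to 1229 CPM with eGFP and 288 to 413 CPM with LRG1 (-1.37, SE 0.24, adjusted p = 0.0023). Neither Psap nor Lgmn held throughout. Of 27 vacuolar ATPase and lysosomal membrane genes 6 were lower and none higher, among them Tcirg1, a membrane subunit of the proton pump, at -1.85 (SE 0.30, adjusted p = 0.0017), which held throughout. The hydrolase list lay at 0.98, 0.17, 1.12 and 0.38 above the LRG1 mean in eGFP replicates 1 to 4.

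Promoters of lysosomal genes are known to carry an E-box, CACGTG, that the MiT/TFE factors bind. In the 250 bases before the RefSeq start, on either strand, CACGTG was found in 9 of 22 tested hydrolase genes with a promoter in the table (40.9%), against 9.17% of the 12867 tested genes that had one and 6.02% of all 32851 promoters. Among the 12 hydrolase genes called at week 10 that had a promoter in the table it was found in 3 (25.0%). Those 3 are given from GRCm38.p6, on the strand of the gene, with the match in capitals, for Ctsa (protective protein, chr2:164833731-164833772), Lgmn (chr12:102439106-102439171) and Gla (alpha-galactosidase A, chrX:134601194-134601255). The match in Ctsa and the first in Gla are flanked by T and A, which makes the longer TCACGTGA, found in 1.55% of tested genes with a promoter.
Ctsa: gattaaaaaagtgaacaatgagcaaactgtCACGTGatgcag
Lgmn: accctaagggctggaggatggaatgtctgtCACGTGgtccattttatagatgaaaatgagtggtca
Gla: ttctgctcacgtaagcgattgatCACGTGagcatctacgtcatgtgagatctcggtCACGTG
Ctsa was at -1.02 (SE 0.20, adjusted p = 0.0032) and Gla, at 84.3, 25.4, 101 and 32.2 CPM with eGFP and 15.8 to 21.3 CPM with LRG1, at -1.80 (SE 0.33, adjusted p = 0.0026). These 2 were chosen after their values were seen, for their promoters. A match describes the sequence and not a bound site.

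Members of other lists were called lower too, against 5.24% of all genes tested. The shares were 29.2% of metalloproteinases and inhibitors, 29.0% of cell cycle and 26.1% of unfolded protein response genes. They were 22.6% of eicosanoid and 17.5% of cytosolic ribosomal protein genes. Mmp12, the macrophage elastase, was at 4315, 314, 4942 and 583 CPM with eGFP and 140 to 260 CPM with LRG1 (-3.83, SE 0.66, adjusted p = 0.0020). Of 24 metalloproteinases and inhibitors 7 were lower and 1 higher, and none held throughout. Hpgds, the haematopoietic prostaglandin D2 synthase, and Pla2g7, which degrades platelet-activating factor, were at -1.60 (SE 0.27) and -1.80 (SE 0.32) among 7 lower and 3 higher of 31 eicosanoid genes, whose median was -0.24. Of 31 cell cycle genes 9 were lower and none higher (median -0.56), and Bub1b, a kinase of the spindle checkpoint, held throughout, at 10.7 to 15.9 CPM with eGFP and 6.62 to 8.25 CPM with LRG1 (-0.81, SE 0.12, adjusted p = 0.0012). Of 57 cytosolic ribosomal protein genes 10 were lower and none higher with small differences (median -0.32), such as Rps7 at -0.38 (SE 0.08, adjusted p = 0.0037). Of 23 genes of the unfolded protein response 6 were lower and none higher. They included Atf3, a stress-induced repressor, at -2.23 (SE 0.41, adjusted p = 0.0026). No called member of the eicosanoid, ribosomal protein or unfolded protein response lists held throughout. With eGFP replicates 1 and 3 left out, none of the lists of this paragraph had a member called lower. Ribosomal protein genes called lower ran from 0 to 27 over the leave-one-out fits.

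Among the genes higher with LRG1 at the smallest p were enzymes and transporters of serotonin, choline and phospholipid metabolism. Tph2, the isoform of tryptophan hydroxylase known from serotonin neurons, on chromosome 10, was at 69.1, 71.9, 53.9 and 80.0 CPM with eGFP. With LRG1 it was at 391, 244, 296 and 401 CPM, above every control, and its log2 fold change was 2.28 (SE 0.23, adjusted p = 0.00016). Tph1 was lower and Tph2 higher in the same libraries, and Tph2 was 1 of the 2 genes that the 8 libraries alone called higher (adjusted p = 0.0042), the other being Lrg1. Slc5a7, the high-affinity choline transporter, was at 145, 140, 135 and 160 CPM with eGFP and 382, 283, 300 and 465 CPM with LRG1 (1.30, SE 0.16, adjusted p = 0.00076). Pcyt2, the rate-setting enzyme of phosphatidylethanolamine synthesis, was at 0.62 (SE 0.07, adjusted p = 0.00076).

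Higd1a, a hypoxia-induced protein of the inner mitochondrial membrane, was also among the 10 genes called higher with the smallest p. It was at 24.7, 29.0, 23.8 and 29.4 CPM with eGFP and 48.4, 43.4, 48.8 and 48.5 CPM with LRG1 (0.82, SE 0.08, adjusted p = 0.00012). Bc1, a small non-coding RNA known from dendrites, was at 132 to 172 CPM and 278 to 297 CPM (0.88, SE 0.10, adjusted p = 0.00048). Cth, which makes cysteine from cystathionine, was at 3.75 to 5.12 CPM and 8.05 to 11.6 CPM (1.17, SE 0.14, adjusted p = 0.00072). Vldlr, a receptor for triglyceride-rich lipoproteins, was at 134 to 177 CPM and 241 to 336 CPM (0.88, SE 0.11, adjusted p = 0.00078). These, like Tph2, Slc5a7, Pcyt2, Hfe and Lrg1, held throughout and were called with eGFP replicates 1 and 3 left out.

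**Figure D4:**
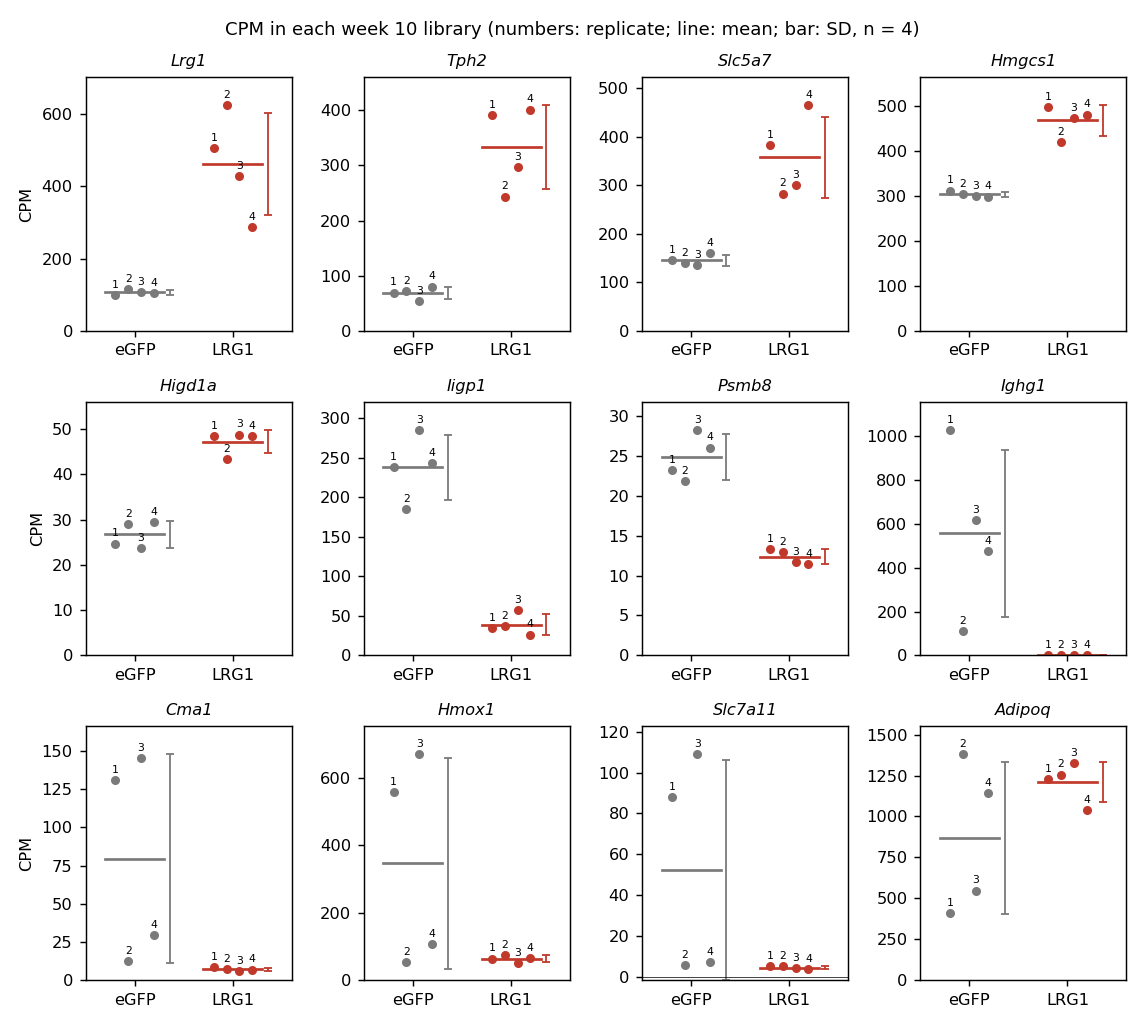
CPM (y axis, linear) of 12 genes in each week 10 library, with the replicate number beside each point, a line at the group mean and a bar for 1 SD (n = 4). In the top row and for Higd1a, Iigp1 and Psmb8 the 4 controls lie close together and apart from LRG1; Cma1, Hmox1 and Slc7a11 are high in eGFP replicates 1 and 3, and Adipoq is low there.

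Cholesterol synthesis had the largest share of members called higher among the 70 lists. Of 20 tested enzymes 8 were higher and none lower (40%, median 0.35), and 4 held throughout. Hmgcs1, which makes HMG-CoA, was at 312, 304, 301 and 299 CPM with eGFP and 499, 420, 473 and 482 CPM with LRG1 (log2 fold change 0.62, SE 0.09, adjusted p = 0.0011). Lss, which closes the sterol ring, and Sc5d, a desaturase, were at 0.61 (SE 0.09) and 0.76 (SE 0.13). The list did not follow the split of the controls, at -0.25, -0.41, -0.31 and -0.33 relative to the LRG1 mean in eGFP replicates 1 to 4. Of 20 sterol regulation and efflux genes 4 were lower, 1 was higher and 15 were not called (median -0.13), with Soat1, which esterifies cholesterol, at -1.65 (SE 0.31, adjusted p = 0.0029) and Abcg1, an exporter, at -1.37 (SE 0.26, adjusted p = 0.0031).

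The letters CACCCCAC, the core of a sterol regulatory element, occurred on either strand in the 250 bases before the start of 2 of the 7 called cholesterol synthesis genes with a promoter in the table and of 2 of 15 tested ones (13.3%), against 3.32% of tested genes. Both windows are shown from GRCm38.p6 with the match in capitals, for Hmgcs1 (chr13:119690185-119690252, plus strand) and Acat2 (chr17:12960869-12960936, minus strand), the thiolase that opens the pathway.
Hmgcs1: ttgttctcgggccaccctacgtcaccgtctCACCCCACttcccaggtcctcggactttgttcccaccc
Acat2: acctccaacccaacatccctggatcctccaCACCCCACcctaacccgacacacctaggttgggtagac
Acat2 was at 13.9 to 17.7 CPM with eGFP and 18.9 to 24.3 CPM with LRG1 (0.51, SE 0.10, adjusted p = 0.0038), and was named for its promoter after its value was seen.

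Of 32 adipokine and other secreted adipocyte genes 7 were higher, 1 was lower and 24 were not called (median 0.48), and 2 held throughout. Of 19 acute-phase genes 7 were higher and 2 lower. Lrg1 is itself a member of this list. Hp, which encodes haptoglobin, was at 1175, 1953, 1174 and 2053 CPM with eGFP and 4064, 2792, 3586 and 3653 CPM with LRG1 (1.15, SE 0.18, adjusted p = 0.0014), and Orm2, an orosomucoid with close paralogs, was at 3.38 to 6.27 CPM and 10.5 to 15.8 CPM (1.69, SE 0.24, adjusted p = 0.0010). Both held throughout. Lep, which encodes leptin, the hormone whose receptor these mice lack, was at 1348, 3068, 1240 and 3595 CPM with eGFP and 5296, 4912, 5102 and 5287 CPM with LRG1 (1.15, SE 0.26, adjusted p = 0.0068). Its call was lost without eGFP replicate 1 (adjusted p = 0.022), and with eGFP replicates 1 and 3 left out its log2 fold change was 0.63 (adjusted p = 0.00996).

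Pnpla3, a lipid droplet hydrolase regulated by feeding, was at 28.9 to 50.3 CPM with eGFP and 73.5 to 112 CPM with LRG1 (1.28, SE 0.18, adjusted p = 0.0010, held throughout), 1 of 3 higher among 26 fatty acid synthesis genes. Dgat2, the last enzyme of triglyceride synthesis, was at 608, 1018, 633 and 1124 CPM with eGFP and 1418 to 1768 CPM with LRG1 (0.94, SE 0.18, adjusted p = 0.0032). Pparg, the regulator of the adipocyte programme, was at 0.52 (SE 0.12, adjusted p = 0.0066). Of 29 mature adipocyte genes 3 were higher, Lrg1, Pparg and Lep, and Adipoq (0.48, SE 0.28, adjusted p = 0.22) and Fabp4 (0.33, SE 0.18, adjusted p = 0.19) did not pass. Scaling by library size alone left 320 genes higher, and under it 3 adipokine genes and 1 collagen gene were called higher.

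Of 30 collagen chains 8 were higher and 1 lower (median 0.38), and none held throughout. Col4a1, the main chain of basement membrane collagen, was at 1157, 1326, 1132 and 1438 CPM with eGFP and 2019, 1704, 2070 and 2209 CPM with LRG1 (0.66, SE 0.12, adjusted p = 0.0020), and Col4a2, its partner, was at 0.73 (SE 0.15, adjusted p = 0.0038). The lower one was Col11a1, a fibrillar chain, at 0.269 to 2.99 CPM with eGFP and at most 0.252 CPM with LRG1 (-3.61, SE 0.83, adjusted p = 0.0073). Serpinh1, the chaperone of collagen folding, was at 288 to 398 CPM and 533 to 611 CPM (0.70, SE 0.11, adjusted p = 0.0014) and held throughout. Sparc, a collagen-binding matrix protein, was at 1921, 3676, 1909 and 3482 CPM with eGFP and 4898 to 5271 CPM with LRG1 (0.90, SE 0.18, adjusted p = 0.0036). Among 14 markers of pericytes and smooth muscle 4 were higher, with the smooth muscle myosin Myh11 at 15.1 to 30 CPM and 36.9 to 48.2 CPM (1.01, SE 0.18, adjusted p = 0.0020, held throughout). Of 17 endothelial markers 1 was higher, the receptor gene Tie1 (5.88%, against 3.66% of all genes), and it did not hold throughout. All 17 had a log2 fold change above 0, with a median of 0.63, or 0.31 with eGFP replicates 1 and 3 left out. For 4 of the 17 all LRG1 libraries lay above all eGFP libraries, against 9.96% of all genes tested. The smooth muscle list lay at -1.15, -0.35, -1.12 and -0.50 in eGFP replicates 1 to 4 and the adipocyte list was low in the same libraries, and the part of that shift in these differences was not tested.

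Several genes known from nerve and muscle were among the 15 with the largest rises. Gpr50, an orphan receptor related to the melatonin receptors, was at 1.47, 1.31, 0.364 and 1.48 CPM with eGFP and 26.1, 9.99, 1.57 and 24.9 CPM with LRG1 (3.72, SE 0.66, adjusted p = 0.0022). The LRG1 libraries themselves spread widely, and replicate 3 lay just above the controls. Trdn, which anchors the calcium release channel of muscle, was at 0.567, 7.27, 0.937 and 6.78 CPM with eGFP and 46.3, 24.3, 19.5 and 38.0 CPM with LRG1 (3.02, SE 0.59, adjusted p = 0.0032). Its partners Ryr2, the channel, and Casq2, the calcium store protein, were at 1.2 (SE 0.24) and 2.04 (SE 0.41), which makes 3 higher of 17 calcium handling and channel genes of striated muscle. Of 15 skeletal muscle genes tested 2 were higher, Trdn and Des (13.3%, against 3.66% of all genes), and 13 had a log2 fold change above 0 (median 0.67). For 6 of the 15 all LRG1 libraries lay above all eGFP libraries, against 9.96% of all genes tested. Ckm, Myh4, Tnnc2 and Myod1, also listed, were below the filter on low counts. Whether the fat pads held muscle was not tested. Mstn, which encodes myostatin, was at 0.156 to 0.944 CPM and 2.58 to 6.49 CPM (2.83, SE 0.46, adjusted p = 0.0015) and held throughout, as did Brinp2 (2.80, SE 0.45) and Tmem132b (2.37, SE 0.36), both known from the nervous system.

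The shares called higher, against 3.66% of all genes, were 11.1% of hormone, adrenergic and metabolite receptors, 14.3% of citric acid cycle genes and 16.7% of mitochondrially encoded genes. Oxtr, the oxytocin receptor, was at 98.0 to 276 CPM with eGFP and 295 to 555 CPM with LRG1 (1.37, SE 0.26, adjusted p = 0.0031), 1 of 4 higher and 1 lower among 36 such receptors. Idh3a, a subunit of isocitrate dehydrogenase, was at 103 to 141 CPM and 168 to 197 CPM (0.58, SE 0.09, adjusted p = 0.0014, held throughout), 1 of 3 higher among 21 citric acid cycle genes. Of 12 mitochondrially encoded protein genes mt-Nd2 (0.47, SE 0.10, adjusted p = 0.0045) and mt-Nd4 (0.44, SE 0.10, adjusted p = 0.0087) were higher. edgeR called none of 52 nuclear-encoded respiratory chain subunits, of which 9 were higher and 0 lower at an unadjusted p below 0.05 and 1 was called higher by DESeq2. It called none of 21 thermogenic genes, of which 3 were lower and 4 higher at an unadjusted p below 0.05 and 1 was called lower by DESeq2. None of 12 mesothelial, 6 lymphatic or 11 erythroid and platelet genes was called by edgeR or DESeq2, with 0, 3 and 8 of them at an unadjusted p below 0.05. Over the 13 lists of immune, lysosomal, cell cycle, ribosomal and stress genes for which none is given as higher above, 6 of 322 members were higher at an unadjusted p below 0.05 and DESeq2 called 2 higher.

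Among genes that the study followed as transcript or protein, in part in cultured adipocytes and macrophages rather than in this tissue, Ccl3 (-2.47, SE 0.49, adjusted p = 0.0035), Ccl4 (-2.25, SE 0.52, adjusted p = 0.0073) and Tnf (-1.23, SE 0.24, adjusted p = 0.0035), which encode inflammatory signals, were lower. Ccl3, Ccl4 and Tnf did not hold throughout. With eGFP replicates 1 and 3 left out they were at -1.52, -1.81 and -0.78 and were not called (adjusted p = 0.080, 0.094 and 0.081, edgeR). Ccl2, the monocyte chemokine, was at 9.93 to 32.8 CPM with eGFP and 9.79 to 23.3 CPM with LRG1 and was not called (-0.50, SE 0.36, adjusted p = 0.34). Il1b, Il6, Nos2, Irs1, Cycs, Ucp1 and Prdm16 were not called either, with adjusted p of 0.27 to 0.78. Arg1, a marker of alternatively activated macrophages, was at -1.61 (SE 0.46, adjusted p = 0.021). Of other such markers Chil3 was called lower (-1.92, SE 0.45, adjusted p = 0.0082), with overlapping groups at 1.81 to 11.3 CPM with eGFP and 0.833 to 2.62 CPM with LRG1. Clec10a was at -0.63 (SE 0.22, adjusted p = 0.049) and Mgl2 at 1.77 (SE 0.47, adjusted p = 0.015), neither of them called.

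The log2 fold change of LRG1 was higher, that is closer to 0 or above it, at week 10 for 64 genes (0.307%) and lower for 4 (0.0192%) by the test of the difference itself. Of the 30 interferon-gamma-induced genes 18 were among these, and the list median was -0.76 at week 10 and -2.63 at week 7. Ciita, the master regulator of MHC class II, was at -0.59 (SE 0.16, adjusted p = 0.016) at week 10 and -2.69 at week 7 (difference 2.10, adjusted p = 0.00047), and Psmb8 was at -1.01 and -2.71 (difference adjusted p = 0.00047). Iigp1 was at -2.62 and -5.36, with an adjusted p of 0.0090 for the difference. Csmd1, a complement control protein gene, ran the other way, at -1.06 (SE 0.22) at week 10 and 1.29 at week 7 (difference adjusted p = 0.0014), as did Mmp11, a stromal metalloproteinase, at -0.69 and 0.86, Ptgfr, the prostaglandin F receptor, at -0.33 and 1.36, and Olfr1033. The mast cell chymase Cma1 (-3.50 and -1.14, difference adjusted p = 0.19) did not pass the test of the difference, and none of the 762 genes called higher at week 10 did.

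**Figure D5:**
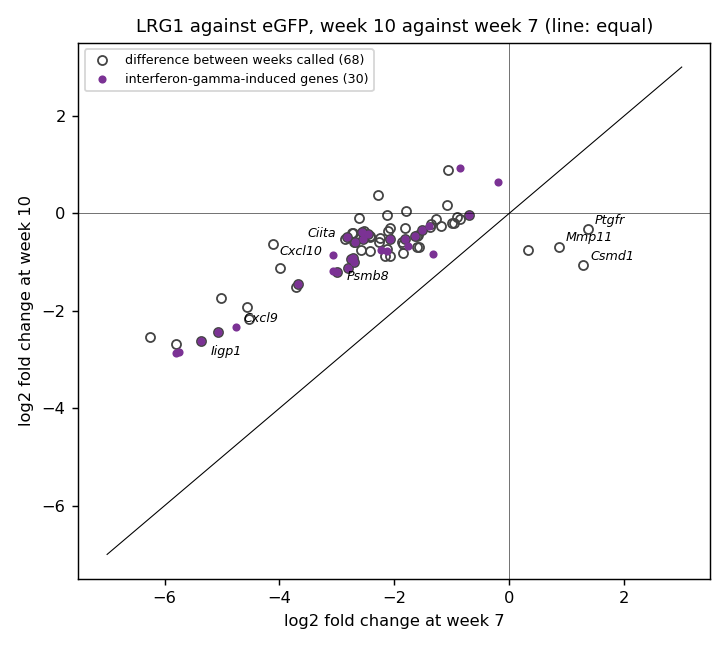
Log2 fold change of LRG1 against eGFP at week 7 (x axis) and at week 10 (y axis) for the 68 genes whose difference between the weeks was called (circles) and the 30 tested interferon-gamma-induced genes (purple points). The line marks equal values; 64 of the 68 circles lie above it, and Csmd1, Mmp11, Ptgfr and Olfr1033 lie below it.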

How the data were processed

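RNA of whole epididymal fat pads was sequenced on a NovaSeq instrument. Per the study's methods and processing notes the authors trimmed reads with Cutadapt, aligned them with STAR to mm10 (GRCm38) and counted them per gene with featureCounts, and deposited the raw counts as 1 table; versions and strand setting were not given in the sources used here. All sample columns of the table were matched to a sample by title (0 were left unused). Of 55573 gene rows 17401 held no count. Counts were analysed with edgeR 4.0.16 (quasi-likelihood test, TMM scaling, filterByExpr by group) in R 4.3.3, with all 16 libraries and 1 coefficient per group. P-values were adjusted over the 20822 genes tested by the Benjamini-Hochberg method with a threshold of 0.01, and the SE is the log2 fold change divided by the square root of F. DESeq2 1.42.0 and limma 3.58.1 were alternatives. The fit was also run on simulated counts with known changes, drawn from the means and spreads of the real fit. These counts held no split of the eGFP controls, so the run does not measure how that split affects the calls. P-values measure the spread between these libraries, each labelled as a separate sample.

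The members and the 70 gene lists were chosen with earlier results of these data known. Genes were named by rule: Lrg1, the 15 largest changes per direction, the 10 with the highest CPM and the 10 with the smallest p per direction, up to 4 members per list with the smallest p, genes the study assayed in tissue or cultured cells, and the 5 per direction with the smallest p for the difference between the weeks. Clone names, pseudogenes and receptor segments were left out of the ranked parts. 1 gene that the rule takes is not reported here. Sdc1, Cd59a, Slc40a1, Tie1, Rnase10, Olfr1033 and other members that complete a count, and the TGF-beta genes in the closing section, were named after their values were seen. Promoters and gene positions came from RefSeq GRCm38.p6 and the annotation of GRCm38. Replicate numbers did not pair the libraries (see the dependence on processing).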

Additional observations from a re-analysis of the deposited data

Results flagged for a closer look

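Within a group of 4 libraries, 1 library lay far from the other 3 in 17 of 266 groups examined for the genes named, where chance gives about 1 in 20. LRG1 replicate 1 held the highest level of the antibody genes Ighg1 (1.76 CPM), Ighg2b (3.30 CPM) and Ighg2c (9.73 CPM) in its group, and also of Ciita (12 CPM). LRG1 replicate 2 was the highest of its group for Gpnmb (558 CPM), Psap (1794 CPM), Gla (21.3 CPM), Hpgds (38.6 CPM) and Irs1 (19.6 CPM), and the lowest for Higd1a (43.4 CPM). LRG1 replicate 3 was the highest for Gbp10 (3.20 CPM) and Cxcl10 (2.97 CPM). LRG1 replicate 4 was the lowest for Tnf (0.721 CPM), and replicate 1 was the lowest for Il6 (0.105 CPM) and Mmp11 (5.10 CPM). In the eGFP group, replicate 4 was the highest for Orm2 (6.27 CPM) and replicate 3 the lowest for Gpr50 (0.364 CPM).

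The log2 fold change of LRG1 differed between the weeks, by the test of the difference itself, for 9 of the genes named. Week 10 minus week 7 was 2.75 for Iigp1, 2.64 for Igtp, 2.35 for Ifi47, 1.70 for Psmb8 and 2.10 for Ciita. It was -2.35 for Csmd1, -1.54 for Mmp11, -1.69 for Ptgfr and -1.08 for Olfr1033.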

How the results depend on the processing

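The counts of calls moved with the method more than the directions did, in fits that share all or most of the week 10 libraries. Of genes lower, DESeq2 called 1978, limma-voom 639, a threshold of 0.05 gave 2615 and a log2 fold change past 1 gave 570. Of genes higher, DESeq2 called 1587, library size scaling 320 (1136 lower), the threshold of 0.05 gave 2146 and a log2 fold change past 1 gave 193. The 8 week 10 libraries alone gave 10 lower and 2 higher, and leaving out eGFP replicates 1 and 3 gave 74 and 87, or 2 and 4 gave 3178 and 3187. Leaving out 1 library at a time gave 125 to 2046 lower, 159 to 1601 higher, and 1.94 to 2.29 for the log2 fold change of Lrg1, which was called in each. The list members called numbered 326, against 534 with DESeq2 and 7 with the 8 libraries, and leaving out eGFP replicates 1 and 3 gave 48, 2 and 4 gave 803, and 1 library 50 to 543. For the difference between the weeks, the 4 lower were 40 with DESeq2, 18 at 0.05 and 3 to 11 without 1 library, and the 64 higher were 234 with DESeq2, 119 with library size scaling, 98 with no filter, 178 at 0.05 and 39 to 60 without 1 library. The causes were not tested. Same-numbered libraries of both groups correlated at -0.0756 to 0.0833 in their deviations, so the numbers do not pair them. With a replicate block, 642 were lower and 532 higher, and the differences between the weeks were 2 and 33. Of the alternatives for genes named, 2378 kept direction and call, 506 lost and 14 gained the call, and 9 reversed, all for genes not called: with eGFP replicates 1 and 3 left out, Adipoq was at -0.058, Fabp4 at -0.0079, Ccl2 at 0.37, Il6 at 0.59, Nos2 at -0.25, Irs1 at -0.17 and Prdm16 at -0.056, and without 1 library Il6 ran from -0.67 to 0.13 and Nos2 from -0.039 to 0.35.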

Other observations

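LRG1 is known to act on TGF-beta signalling. Of 22 TGF-beta and endoglin-ALK1 genes 3 were lower and 2 higher with LRG1, and none held when each library was left out in turn. The shares were 13.6% lower and 9.09% higher, against 5.24% and 3.66% of all genes tested, and the list median was 0.15. Tgfb1, the ligand, was at 35.6, 17.5, 33.2 and 19.7 CPM in eGFP replicates 1 to 4 and 13.3 to 17.1 CPM with LRG1 (log2 fold change -0.78, SE 0.18, adjusted p = 0.0079, edgeR), and its receptor Tgfbr1 was at -0.48 (SE 0.10, adjusted p = 0.0048). Ltbp2 and Ltbp3, of the family of latent TGF-beta binding proteins of the matrix, were at 1.09 (SE 0.21) and 0.82 (SE 0.17). Eng, which encodes endoglin, was at 28.1 to 33.4 CPM with eGFP and 31.8 to 35.7 CPM with LRG1 and was not called (0.09, SE 0.10, adjusted p = 0.57).

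Of 32 Wnt ligands, receptors and inhibitors 4 were higher (12.5%, against 3.66% of all genes). None was called lower by edgeR (2 at an unadjusted p below 0.05, 1 by DESeq2). The 4 included Wnt5a, a non-canonical ligand, at 0.75 (SE 0.14, adjusted p = 0.0030), and Wif1, a secreted inhibitor, at 0.677 to 1.78 CPM with eGFP and 3.32 to 4.27 CPM with LRG1 (1.48, SE 0.34, adjusted p = 0.0068). Of 20 glycolysis genes 2 were lower and 4 higher, with Hk3, a hexokinase of myeloid cells, at -2.31 (SE 0.40, adjusted p = 0.0020) and Tpi1, triose phosphate isomerase, at 0.38 (SE 0.08, adjusted p = 0.0049).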
